A study of Mus musculus with 2 samples.

Results

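The 41 genes described here build, load and digest the autophagosome, or mark mitochondria for it. They were taken as a given list of named genes, with no cutoff on the chromatin measurements, and are 41 of 21829 protein-coding genes (GENCODE M21, mouse build mm10, 1 gene per symbol). DNase-seq finds open chromatin as the places where DNase I, an enzyme that cuts exposed DNA, cuts most. It had been run on the gastrocnemius, a calf muscle, of adult males of the F1 hybrid strain B6CASTF1/J aged 18 to 20 months. There were 2 samples in 1 group, biological replicates 1 and 2 with technical replicate 1 each. No treatment, no other age and no control group was part of the design, so nothing was compared between groups and no p-values are given. The labels give both samples the same donor label but different biosample labels, so any spread given covers only this pair of samples and may be technical. Autosomal genes carry a B6 and a CAST allele in this strain, and both alleles were read against 1 reference genome. Values are the signal of peaks in the authors' unit, whose scale is not stated, so the sequencing depth is unknown. The peak lists held 131398 and 91567 peaks and the footprint lists 339656 and 234091 footprints, in replicates 1 and 2. Throughout, a pair of values is given in the order replicate 1, replicate 2.

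In autophagy a cell wraps part of its own contents in a double membrane, the autophagosome, and delivers it to the lysosome for digestion. A kinase complex around ULK1 starts the process, a lipid kinase complex marks the membrane, ATG9, ATG2 and WIPI proteins supply and read its lipids, and ubiquitin-like conjugation fixes proteins of the LC3 and GABARAP family to it. Receptors tie cargo to these proteins, and mitophagy is the form in which the cargo is a mitochondrion. In skeletal muscle autophagy is known for the turnover of damaged mitochondria and for the loss of protein during fasting and disuse. The transcription factors TFEB and TFE3 bind E-boxes with the core CACGTG at many genes of lysosomes and autophagy. A footprint, a short stretch inside open chromatin with fewer cuts than its surroundings, is commonly read as a place where protein sat on the DNA, but it does not name the protein.

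The promoters of Lamp1, Atg3, Atg14 and Gabarap held the E-box CACGTG under a footprint inside a promoter peak of both replicates. Wipi1 held it under a footprint in both, with a promoter peak over it in replicate 1 alone. A box counts as under a footprint when they share at least 1 bp, and at Atg3 in replicate 1 footprints only touched the edges of the box. Sequences of these genes are shown because the E-box is a site that TFEB and TFE3 bind, and both of these factors are among the 41 genes. Which protein lay over the boxes was not measured. All are from the mm10 genome (GRCm38), 5′ to 3′ on the strand of the gene, and capitals mark the E-box. Stretches inside exons were left out, except for pieces of 30 bases around a box.
Lamp1, chr8:13159081-13159160, plus strand: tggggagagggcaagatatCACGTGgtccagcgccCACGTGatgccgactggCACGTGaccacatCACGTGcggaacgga
Lamp1, chr8:13159209-13159238, plus strand: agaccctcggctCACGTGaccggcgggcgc
Lamp1, chr8:13159236-13159265, plus strand: cgcggcactgctCACGTGacaggcgctgcc
Atg3, chr16:45158707-45158784, plus strand: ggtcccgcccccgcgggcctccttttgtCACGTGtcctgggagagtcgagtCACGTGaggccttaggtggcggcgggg
Atg14, chr14:47568418-47568447, minus strand: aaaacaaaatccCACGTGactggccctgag
Gabarap, chr11:69990901-69991120, plus strand: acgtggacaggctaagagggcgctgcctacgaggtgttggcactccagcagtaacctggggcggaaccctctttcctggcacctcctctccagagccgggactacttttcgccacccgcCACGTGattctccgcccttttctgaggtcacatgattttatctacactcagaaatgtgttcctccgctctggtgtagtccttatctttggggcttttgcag
Wipi1, chr11:109611970-109612026, minus strand: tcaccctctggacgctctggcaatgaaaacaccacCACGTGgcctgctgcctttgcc

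Lamp1, which encodes an abundant glycoprotein of the lysosomal membrane, held the most E-boxes. Within its promoter peak of replicate 1 there were 6 copies, and no other protein-coding gene had as many in its promoter peaks in that replicate. The peak of replicate 2 was narrower (100 bp against 180 bp) and held the 4 upstream copies, a number that 9 genes, Lamp1 included, reached there. These 4 lie 58, 42, 26 and 12 bp upstream of the start site, and the other 2 lie 62 and 90 bp downstream, in the first exon. A footprint of 51 bp at chr8:13159095-13159145, with the same edges in both replicates, spans the first 3 boxes and ends at the base before the fourth. It was the widest of all footprints in promoter peaks of the 41 genes. Footprints were 10 bp wide at the median of each list, and 0.0783% and 0.123% of all footprints were as wide as this one. A second footprint covers the box at 62 bp in both replicates (chr8:13159197-13159234 and chr8:13159194-13159231), although in replicate 2 it lies outside the called peak. No footprint lay over the boxes at 12 bp upstream and 90 bp downstream.

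Atg3, the E2-like enzyme that hands LC3 to its lipid, held 2 boxes, 48 and 24 bp upstream of its start site. The nearer one, which also reads as the longer form TCACGTGA, lay under a footprint of 19 bp in replicate 2 and touched 2 footprints of 7 and 10 bp in replicate 1. The farther one was under a footprint of 9 bp in replicate 2 alone. Atg14, the subunit that brings the lipid kinase to autophagy, had its single box at the start site itself, under footprints of 10 and 9 bp that begin at the box's first base, chr14:47568430. Gabarap, of the LC3 and GABARAP family, had its box 120 bp upstream. A footprint of 10 bp covered it in replicate 1, and one of 8 bp in replicate 2 ended inside the box. At Wipi1, which reads the lipid mark on the growing membrane, the box 556 bp upstream lay under footprints of 35 and 36 bp. Uvrag, a partner of Beclin 1, had a box 336 bp upstream that was covered by a 20 bp footprint in replicate 1 and touched by a 7 bp footprint outside the peak in replicate 2. Boxes at Atg2b, Gabarapl2, Map1lc3b, Nbr1 and Bnip3 had no footprint in either replicate, and that of Atg5 had one in replicate 1 alone.

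**Figure D1:**
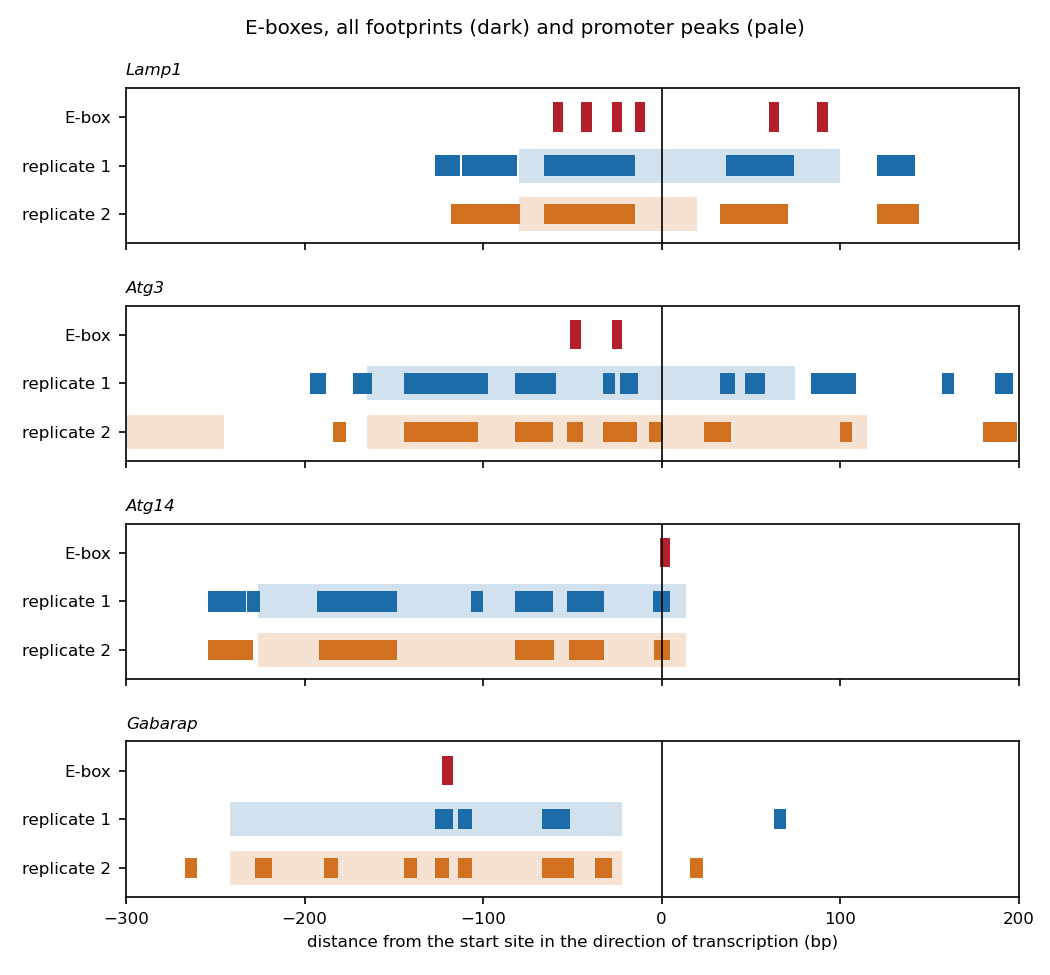
Positions of the CACGTG E-box (red), of all footprints (dark) and of promoter peaks (pale) at Lamp1, Atg3, Atg14 and Gabarap, as the distance from the start site in bp, with replicate 1 in blue and replicate 2 in orange. The 51 bp footprint over 3 E-boxes of Lamp1 has the same edges in both replicates.

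In numbers, 12 and 8 of the 41 genes (29.3% and 19.5%) had CACGTG in a promoter peak, against 15.0% and 14.1% of all genes with a promoter peak. In both replicates it was 8 of 41 genes, beside 12.6% of the 13627 genes with a promoter peak in both. Counting any overlap of at least 1 bp, CACGTG under a footprint in a promoter peak of both replicates was found at 4 of 41 genes (9.76%), beside 4.51%. With 41 genes these counts are small. Of the 4 genes with a box in a peak of replicate 1 alone, Uvrag, Wipi1 and Map1lc3b had a narrower peak in replicate 2 that did not reach the box, and the weak peak of Nbr1 over the box was not called there. All 18 copies in promoter peaks of either replicate belong to 12 genes. Of these, 9 copies at 6 genes were under or touched by a footprint in both replicates, whether or not a peak was called there. These counts of copies, and the 6 genes, were not set against all genes.

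All 41 genes had a promoter peak in both replicates, a promoter being the 1000 bp on either side of any annotated protein-coding start site. Among all protein-coding genes the share was 65.7% in replicate 1, 63.6% in replicate 2 and 62.4% in both. All 41 also had a promoter peak in the smaller, stricter peak list of both replicates, a count that was not set against all genes. CpG content was counted within 1000 bp of the most upstream start site only. A gene counted as rich with at least 0.6 of the number of CpG pairs that base composition would give. Of all genes rich by this count, 93.9% had a promoter peak in both replicates. Among the 41 genes, 21 were rich (51.2%, against 34.3% of all genes), and all 21 had such a peak. At Rb1cc1, Atg14 and Atg4b the most upstream site was closed and another was open. Their low ratios (0.163, 0.191 and 0.265) thus do not describe the open site. CpG content is thus shared with many other genes whose promoters are open, and its part in the result was not tested.

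The strongest promoter peak had a median signal of 4.90 and 5.12 over the 41 genes. Over all genes, with closed promoters at 0, the median was 1.23 and 1.30, and over genes open in both replicates it was 3.37 and 3.48. On a percentile rank of that signal among all genes, the 41 genes had a median of 79.6 and 79.7. None of them ranked below 56.7 in either replicate, so all 41 lay in the upper 50% in both, beside 48.8% of all genes. In the top 10% of both replicates were 12 of 41 genes (29.3%), beside 8.9% of all genes. These were Ulk1, Bnip3l, Wipi1, Uvrag and Lamp1, which had the 5 highest mean percentiles, and Atg14, Atg2a, Atg4d, Atg5, Nbr1, Pink1 and Tfeb. Measured from the site lists, the share of bases within 1000 bp of the most upstream start site that lay in sites past a false discovery rate of 0.05 had a median of 54.7% and 48.2%, against 25.5% and 21.9% over all genes. It was highest at Gabarapl2 (88.9%) in replicate 1 and at Wipi1 (85.1%) in replicate 2. The peaks were no wider than elsewhere, with a median of 220 bp for the 41 genes and for all genes with a promoter peak. In bulk tissue, a promoter open in few nuclei and one weakly open in many cannot be told apart.

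**Figure D2:**
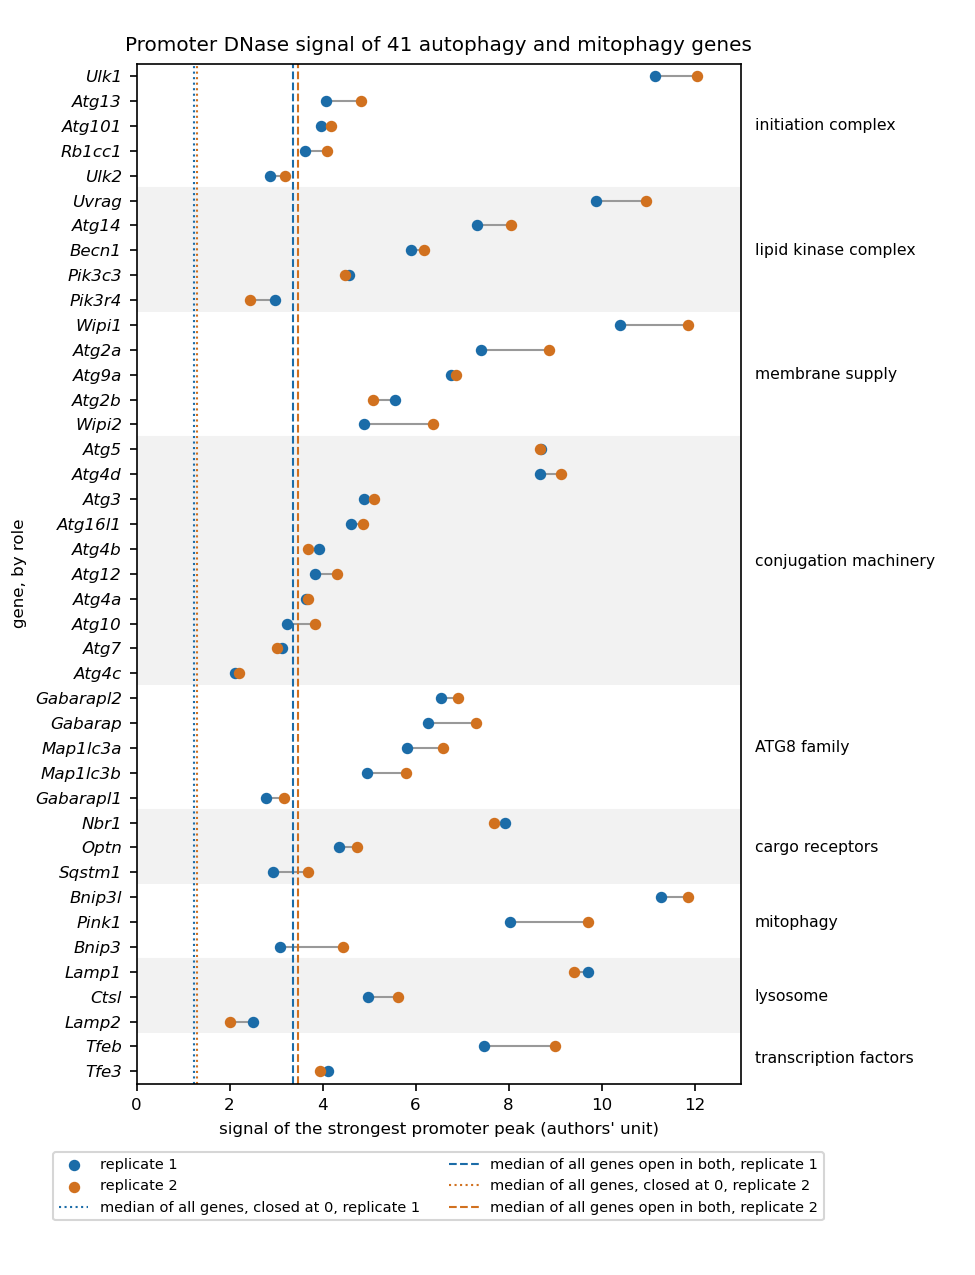
Signal of the strongest promoter peak of each of the 41 genes in the authors' unit, grouped by role, with replicate 1 in blue and replicate 2 in orange joined by a line. Vertical lines are medians over all genes with closed promoters at 0 (dotted, 1.23 and 1.30) and over genes open in both replicates (dashed, 3.37 and 3.48); Ulk1, Bnip3l and Wipi1 lie farthest to the right.

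Among the genes of the initiation complex, Ulk1, the kinase that starts autophagy under the control of nutrient and energy sensors, stood at 11.1 and 12.1 and at percentiles 99.1 and 98.8. Its relative Ulk2 stood at 2.87 and 3.20. The scaffold gene Rb1cc1 had 3.61 and 4.10. Atg13, the regulatory subunit that links the kinase to nutrient signals, had 4.07 and 4.82, and Atg101, its binding partner, had 3.96 and 4.18. Ulk1 was far above the other 4 genes in both replicates, and Ulk2 was the lowest of the 5 in both.

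In the lipid kinase complex, which makes phosphatidylinositol 3-phosphate, the catalytic subunit gene Pik3c3 had 4.56 and 4.49, and the gene of its regulatory subunit, Pik3r4, 2.98 and 2.44. Becn1, which encodes the scaffold Beclin 1, had 5.90 and 6.18. The subunits that direct the kinase to different membranes were higher. Atg14, for autophagosomes, had 7.32 and 8.04, and Uvrag, for endosomes and late steps, had 9.88 and 11.0. The order Uvrag, Atg14, Becn1, Pik3c3, Pik3r4 held in both replicates.

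The genes of membrane supply lay above the median of open genes in both replicates. Wipi1 had 10.4 and 11.9, and its relative Wipi2, which recruits the conjugation complex, had 4.90 and 6.38. Atg9a, the lipid scramblase carried by small vesicles, had 6.76 and 6.87. The lipid transfer proteins ATG2A and ATG2B are close relatives, and Atg2a had 7.40 and 8.88 where Atg2b had 5.56 and 5.09.

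The 10 genes of the conjugation machinery ranged from 2.12 and 2.21 at Atg4c to 8.71 at Atg5 in replicate 1 and 9.12 at Atg4d in replicate 2. Of the proteases that trim LC3 and release it again, Atg4d had 8.68 and 9.12, Atg4b 3.93 and 3.70, Atg4a 3.65 and 3.68, and Atg4c was the lowest of all 41 genes in replicate 1. Atg4d thus stood far above the other 3 protease genes in both replicates. Atg7, the E1-like enzyme that both conjugation pathways share, had only 3.12 and 3.01. The E2-like enzymes had 4.89 and 5.12 (Atg3) and 3.24 and 3.83 (Atg10). In the complex that acts like an E3 ligase, Atg5 had 8.71 and 8.68, Atg16l1 4.60 and 4.87 and Atg12 3.85 and 4.32. The enzyme genes Atg7 and Atg10 were thus low in the range of the 41 genes, while Atg5 was in its upper part.

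Of the ATG8 family, the proteins fixed to the membrane, Gabarapl2 had 6.56 and 6.92, Gabarap 6.26 and 7.30, Map1lc3a 5.82 and 6.60 and Map1lc3b 4.95 and 5.79. Gabarapl1 was the lowest of the family, with 2.78 and 3.18. Gabarap had 2 separate strong peaks, 132 bp upstream of one start site (6.03 and 5.89) and 88 bp upstream of another (6.26 and 7.30), so both annotated starts of this gene were open.

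The cargo receptor genes differed. Nbr1, for ubiquitin-tagged cargo and peroxisomes, had 7.92 and 7.69, Optn, which encodes optineurin, 4.35 and 4.75, and Sqstm1, which encodes the receptor p62, 2.94 and 3.68. At Sqstm1 the strongest peak was centred 594 and 514 bp inside the gene, and the peak at the start site itself had 2.65 and 3.17. The genes of mitophagy included the highest of all 41 in replicate 1. Bnip3l, the mitochondrial receptor also named NIX, had 11.3 and 11.9, at percentiles 99.1 and 98.6. Its relative Bnip3 had 3.09 and 4.45. Pink1, the kinase that gathers on damaged mitochondria, had 8.03 and 9.71 in a peak centred 549 and 539 bp inside the gene, and 4.44 and 5.04 in the peak over its start site. Sqstm1 and Pink1 thus shared a stronger peak inside the gene than at the start.

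Lamp1 had 9.72 and 9.41, whereas Lamp2, the gene of the second major lysosomal membrane glycoprotein, had 2.50 and 2.02, the lowest of the 41 genes in replicate 2. Ctsl, which encodes the protease cathepsin L, had 4.98 and 5.62. Lamp2, Atg4a and Tfe3 lie on the X chromosome, of which a male has a single copy, and its part in their signals was not tested. Tfe3 had 4.13 and 3.94 and Tfeb 7.48 and 9.01.

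Tfeb had the most open start regions of the 41 genes, taken as start sites chained within 1000 bp of each other. A region counts as open with a peak within 1000 bp of a start site, and the number of such regions was not set against all genes. Of its 7 regions, the first 5 were open in both replicates, over 32208 bp. Their signals were 7.48 and 9.01, then 2.57 and 3.49, 3.59 and 2.14, 3.07 and 1.99, and 1.61 and 1.73, and the last 2 regions were closed. The peak of the third region was centred 696 bp inside the gene from its start site in both replicates. The strongest peak of the fourth was centred 489 and 479 bp upstream, with weaker peaks (1.42 and 1.06) over the start site. The promoter peaks of Tfeb held 34 and 31 footprints, the most of the 41 genes, whose median was 6 and 6.

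At other genes 1 start region carried the openness. At Rb1cc1, Atg14 and Atg4b the most upstream annotated start site was closed in both replicates, and the open one lay 8448, 2215 and 3405 bp downstream. No base within 1000 bp of those upstream start sites lay in a site past a false discovery rate of 0.05. Tfe3 had a second, weak open region 1285 bp from the first, with 0.462 and 0.738. All other members with more than 1 start region had a single open one.

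The strongest promoter peak was also within 1000 bp of another gene's start site at 9 of the 41 genes (22.0%), in both replicates, beside 18.1% of genes open in both. Of these, 8 were head-to-head pairs that read away from each other. The pairs were Sqstm1 with Mgat4b (63 bp between start sites), Atg3 with Slc35a5 (79 bp), Atg4b with Thap4 (125 bp), Atg2b with Gskip (173 bp), Atg4a with Psmd10 (179 bp), Atg13 with Harbi1 (276 bp), Atg12 with Ap3s1 (297 bp) and Nbr1 with a neighbouring gene (270 bp). Start sites of Atg9a and Ankzf1 lay 4 bp apart on opposite strands. At these genes the signal cannot be assigned to 1 gene of the pair.

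**Figure D3:**
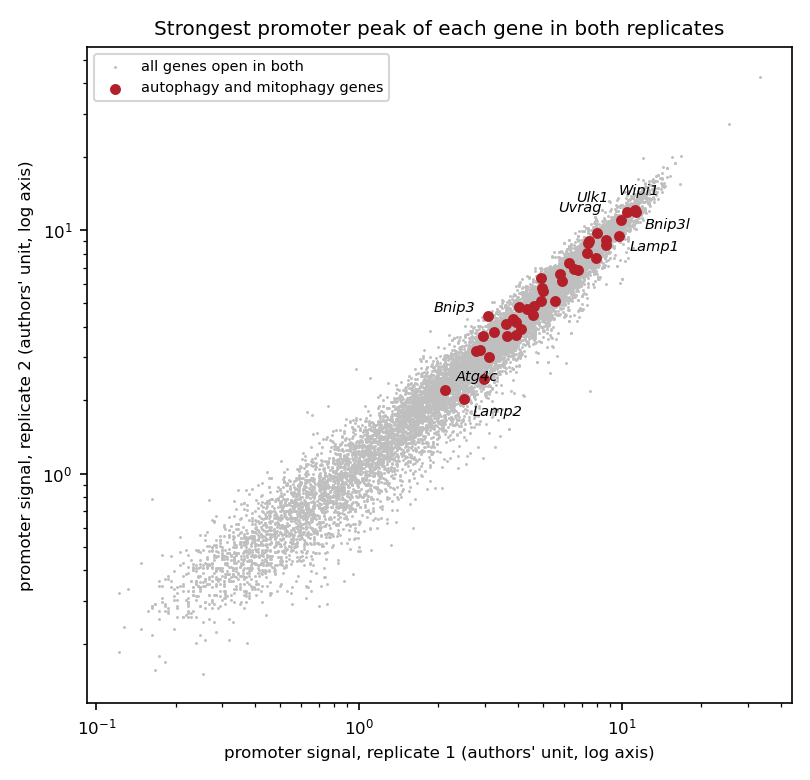
Signal of the strongest promoter peak in replicate 1 against replicate 2, both in the authors' unit on log axes, for all genes open in both (grey) and the 41 genes (red). The 41 genes lie in the upper part of the cloud, from Atg4c and Lamp2 to Ulk1 and Bnip3l.

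The replicates gave similar values for the 41 genes. After division by the median over all genes open in both, the log2 ratio of replicate 2 to replicate 1 had an SD of 0.16 over the 41 genes and 0.28 over all genes open in both. The latter set has a lower median signal (3.37 and 3.48, against 4.90 and 5.12), and the part of signal level in the SDs was not tested. Over the 41 genes the ratio ran from -0.35 at Lamp2 to 0.48 at Bnip3. The 5 largest differences in percentile rank were at Bnip3 (66.6 and 75.4), Wipi2 (79.6 and 86.3), Pik3r4 (65.7 and 60.3), Lamp2 (61.6 and 56.7) and Sqstm1 (65.5 and 70.2). All 5 stayed in the upper 50% in both replicates.

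Every one of the 41 genes had a footprint inside a promoter peak in both replicates, beside 97.2% of genes open in both, so this sets them apart from few others. Their promoter peaks held 307 and 294 footprints, of which 69.4% and 72.4% overlapped a footprint of the other replicate by at least 1 bp. Over all genes the shares were 60.5% and 67.7%. Wide footprints at the same place in both replicates lay at Ulk1 (48 and 46 bp), Becn1 (46 and 46 bp, with the same edges) and the first start region of Tfeb (46 and 46 bp, with the same edges). Those of Ulk1 and Tfeb overlap the GC box GGGCGG, the core site of SP-family factors, and that of Becn1 overlaps none of the motifs searched. GGGCGG in a promoter peak was common in both sets, with 32 and 32 of 41 genes (78.0% and 78.0%) against 71.2% and 73.1%. It lay under a footprint at 28 and 26 of the 41 genes (68.3% and 63.4%), against 56.0% and 57.2% of all genes with a promoter peak.

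Other motifs were rarer, and with 41 genes 1 gene more or less moves a share by several percentage points. The cAMP response element TGACGTCA lay under a footprint at 3 and 4 genes (7.32% and 9.76%), beside 3.92% and 3.88% of all genes with a promoter peak, and at Becn1, Atg5 and Map1lc3a in both replicates. GCATGCGC, part of the site of NRF1, a factor of genes for mitochondria, was under a footprint at 2 and 2 genes (4.88% and 4.88%), beside 5.50% and 5.64%, and at Atg7 and Atg10 in both. CCGGAAG, the site of ETS factors, was so at 4 and 3 genes (9.76% and 7.32%), beside 11.2% and 11.5%, and at Atg3 and Gabarapl2 in both. For the last 2 motifs the shares of the 41 genes were thus below those of all genes. CCAAT, the box of NF-Y, was in promoter peaks of 21 and 14 genes (51.2% and 34.1%), beside 47.1% and 44.5%, so that the replicates fell on either side of all genes. It lay under a footprint at 12 and 10 genes (29.3% and 24.4%), beside 21% and 19.5%, and in both replicates at Uvrag, Atg4a, Atg7, Map1lc3a, Nbr1, Bnip3, Pink1 and Ctsl. The FOXO site TGTTTAC, whose factors are known for driving autophagy genes in wasting muscle, was in promoter peaks of 2 and 3 genes (4.88% and 7.32%), beside 4.05% and 3.68% of all. No footprint lay over it at the 41 genes, and one did at only 0.46% and 0.418% of all genes with a promoter peak. AAGATGG, a site of YY1, was in 1 and 2 genes (2.44% and 4.88%), beside 9.94% and 9.64%. CAGCTG, the E-box of myogenic factors, was in 13 and 13 genes (31.7% and 31.7%), beside 27.6% and 25.6%. ACGTG, the core of the site of hypoxia-inducible factors and also part of CACGTG, was in 20 and 18 genes (48.8% and 43.9%), beside 35.9% and 34.8%. Motifs were searched on both strands, and a match describes letters, not binding.

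**Figure D4:**
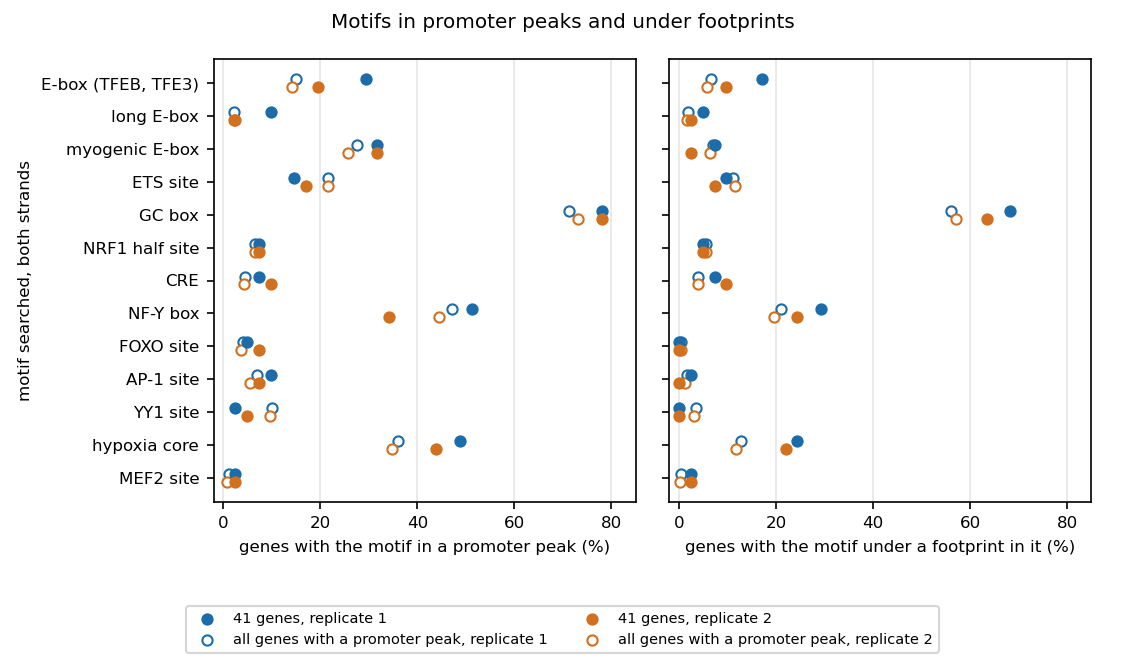
Share of genes, in percent, with each motif in a promoter peak (left) and under a footprint in it (right), for the 41 genes (filled) and for all genes with a promoter peak (open), in replicate 1 (blue) and replicate 2 (orange). The E-box CACGTG was at 29.3% and 19.5% of the 41 genes, against 15.0% and 14.1%.

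Open chromatin away from start sites was taken from gene bodies with 10 kb on both sides, over 1000 bp from every protein-coding start site. In both replicates 35 of 41 genes (85.4%) had such a distal peak, beside 59.8% of all genes. Atg9a and Gabarap had none in either replicate, and Atg4b, Atg4d, Atg12 and Atg16l1 had them in replicate 1 alone. The median number of distal peaks was 3 and 2, against 2 and 1 over all genes. Counting all peaks in that span, the median density of the 41 genes was 1.23 and 0.954 peaks in every 10 kb, against 0.829 and 0.578 over all genes. This density includes promoter peaks, which all 41 genes had and many other genes lacked. Genes were not matched for length or for an open promoter in these comparisons. Together they had 210 and 125 distal peaks, of which 54.8% and 89.6% overlapped a peak of the other replicate. Among the 67812 and 43878 distal peaks of all genes these shares were 53.6% and 82.8%, so those of the 41 genes were near them. Most distal peaks of the 41 genes were in introns (140 and 79), fewer between genes (43 and 32) and in exons (27 and 14). Of these 210 and 125 peaks, 20 and 8 lay within 1 kb of the start of some other annotated transcript, non-coding ones included. Distal peaks called in both replicates had a median signal of 0.980 and 0.808, and those called in 1 replicate had 0.492 and 0.447.

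Long genes held many of them. Atg7 had 28 and 19 distal peaks, of which 16 of replicate 1 were also called in replicate 2, Uvrag 25 and 13 with 13, and Atg10 16 and 10 with 9. Lamp2 had 8 and 6, with 6 in both. Tfeb, Map1lc3b, Wipi1 and Lamp1 had 5 each in both replicates. The strongest distal peak of Atg7, 138834 bp inside the gene in an intron (chr6:114781821-114782040), had 3.77 and 4.13, more than the promoter of Atg7 itself (3.12 and 3.01). Lamp2, whose promoter was among the weakest, had an intronic peak 17853 bp inside the gene with 2.12 and 1.96, close to its promoter's 2.50 and 2.02. An intronic peak of Ulk1 1616 bp inside the gene had 3.90 and 3.79, and one of Pink1 6596 bp inside had 2.85 and 3.02. Peaks upstream of the gene included one of Sqstm1 at 2454 bp, in an intron of Mgat4b (3.11 and 3.03), with the AP-1 site TGACTCA under a footprint in replicate 1 alone, and one of Bnip3 at 10045 bp (3.07 and 3.39).

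**Figure D5:**
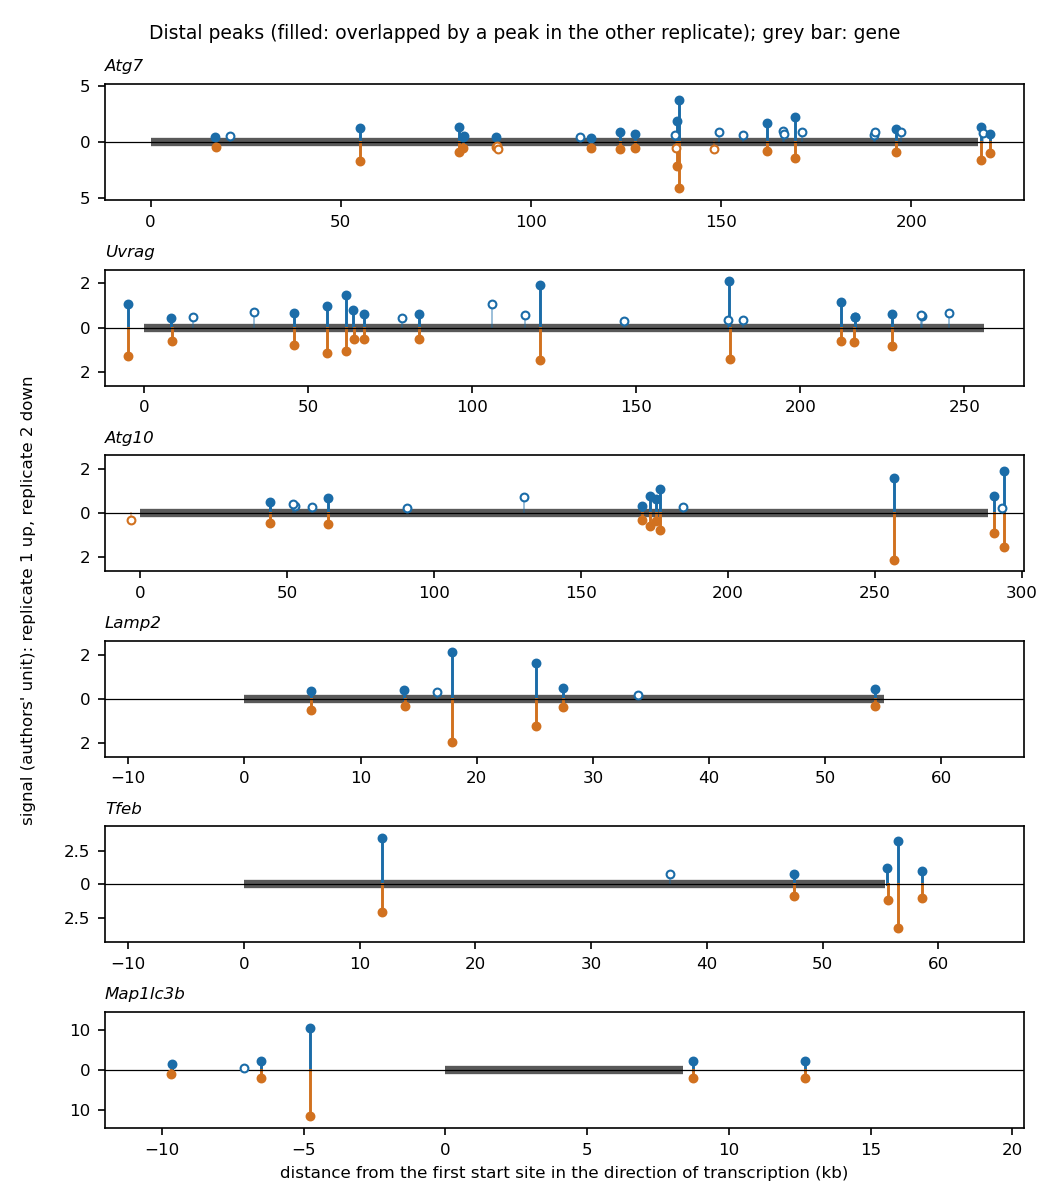
Distal peaks of Atg7, Uvrag, Atg10, Lamp2, Tfeb and Map1lc3b by distance from the first start site in kb, with their signal in the authors' unit, replicate 1 drawn up in blue and replicate 2 down in orange. Filled points overlap a peak of the other replicate, the grey bar is the gene, and the peak 4780 bp upstream of Map1lc3b reaches 10.3 and 11.5.

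The strongest distal peak of the 41 genes lay 4780 bp upstream of Map1lc3b, which encodes LC3B, the protein most used to mark autophagosomes. Its signal was 10.3 and 11.5, above that of the Map1lc3b promoter (4.95 and 5.79). Only 19 of 67812 distal peaks of all genes in replicate 1 (0.028%) and 24 of 43878 in replicate 2 (0.0547%) were as high. No annotated transcript of any type starts within 1 kb of it, but the peak lies inside an intron of the long gene record Gm20388. It holds 2 copies of CCAAT and 2 of GGGCGG. The first CCAAT (chr8:121585501-121585505) lay inside a footprint in both replicates (chr8:121585478-121585513 and chr8:121585479-121585513), and so did the first GGGCGG (chr8:121585551-121585573 and chr8:121585551-121585574). Its sequence is shown because it is the distal region with the highest signal here, with CCAAT and GGGCGG in capitals.
Map1lc3b upstream peak, chr8:121585441-121585720, plus strand: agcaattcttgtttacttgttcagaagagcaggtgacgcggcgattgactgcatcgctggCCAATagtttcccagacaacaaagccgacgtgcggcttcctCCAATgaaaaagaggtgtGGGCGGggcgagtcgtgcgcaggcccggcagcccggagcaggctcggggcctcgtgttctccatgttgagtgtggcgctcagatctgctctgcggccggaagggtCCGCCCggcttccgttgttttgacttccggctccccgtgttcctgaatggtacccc

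A list of 36 other genes of autophagy, lysosomes and their control, taken from knowledge of the pathway, was read in the same way. All 36 had a promoter peak in both replicates, with a median signal of 4.99 and 5.33 and a median percentile of 80.1 and 80.9, near the values of the 41 genes. They ran from Rragd, a GTPase that signals nutrients at the lysosome (1.57 and 1.28), to Snap29, which fuses autophagosomes with lysosomes (10.5 and 12.7). Mtor, the kinase that restrains ULK1, had 6.29 and 6.02. Mitf, a relative of Tfeb, had 4.58 and 4.09. The labelled tissue was checked against markers. All 7 of 7 genes of fast muscle fibres were open, with a median of 4.82 and 4.08, and the 3 liver and 2 neuron genes were closed in both replicates. Of 5 macrophage genes 3 were open in both, beside 62.4% of all genes, with a median of 0.335 and 0.470 over the 5 and with Ptprc and Csf1r closed. The 4 endothelial genes had a median of 0.673 and 1.02, and the 4 fibroblast genes 2.58 and 2.85. Median percentiles were 37.5 and 39.6 for the macrophage genes, 43.5 and 47.1 for the endothelial genes and 62.5 and 63.7 for the fibroblast genes, beside 50 for all genes. Open promoters of fibroblast and endothelial genes and of some macrophage genes were thus present, but the macrophage and endothelial medians lay below that of all genes. The part of such cells in the signals of the 41 genes was not tested.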

How the data were processed

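DNase-seq of 2 gastrocnemius samples was analysed from the deposited lists on mm10. The deposited peak lists give a signal in column 7, in the authors' unit; the p-value type column is a false discovery rate under 0.05 in the deposited site lists and a constant threshold of 0.01 in the deposited footprint lists. Aligner, caller and versions are not given in the sources used here. Of the 2 peak lists per sample the larger was used. Start sites came from GENCODE M21, and bases from GRCm38, whose chromosome lengths hold every peak. Per gene the strongest peak within 1000 bp of a protein-coding start site, distal peaks, footprints wholly inside promoter peaks and 13 motifs were computed with Python 3.11.15, pandas 2.3.3, numpy 2.4.6 and pysam 0.24.0, and tested on simulated data. A footprint lies over a motif when they share at least 1 bp. Lists are scaled separately, so ratios between replicates are relative to the median over genes open in both. No test was run, since the samples form 1 group. The list of 41 genes uses no measured value as a criterion, but it, the other lists, motifs and alternatives were chosen with earlier results of these data known. All 41 genes are named; detail goes to the 5 highest promoter ranks, the most distal peaks in both replicates, the 5 largest rank differences, genes with several open start regions, genes with CACGTG under a footprint in both, and the strongest distal peaks. Wide footprints and the counts of E-boxes under footprints outside peaks were added after the values were seen. A few items, 1 neighbouring gene among them, are not reported here.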

Additional observations from a re-analysis of the deposited data

How the results depend on the processing

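Of 53 recomputed values 47 stayed within the spread between replicates or within 1.5 times the count reported. These include each replicate taken alone, and for the medians such values lie within the spread by construction, so the tally is no measure of stability. The median promoter percentile of the 41 genes moved from 79.7 to 80.1 with a window of 500 bp, to 79.0 with 2500 bp and to 80.6 with the most upstream start site alone. With that start site, 38 of the 41 genes were open. The stricter list gave 0.791 peaks per 10 kb in place of 1.09, and a rate under 0.001 gave 40.0% of promoter bases in open sites in place of 51.5%. With the longer E-box TCACGTGA, 1 gene remained in place of 8. Each replicate alone gave 12 and 8 genes with CACGTG and 39 and 35 with a distal peak, and the stricter list left 27 genes with a distal peak. The counts from the stricter list and from the most upstream start site alone were not set against all genes. No paired analysis was possible because there was a single group. The unknown depth and the smaller lists of replicate 2 limit what can be said of weak peaks.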
